A study of Homo sapiens with 8 samples.

Results

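MEG3 TFR1 is a biotinylated RNA oligonucleotide named for MEG3, a long noncoding RNA transcribed from the imprinted DLK1-DIO3 domain. The results below describe all regions of the comparison of this oligo with no oligo: 89739 captured regions, with more signal when the oligo was present, and 12649 control regions, with more signal when it was left out. These 102388 regions are part of 327994 regions deposited for 3 oligos, and they come from 2 MEG3 TFR1 libraries and 2 no-oligo libraries of a series of 8. The DNA in every group was RNA-free genomic DNA purified from H1 cells, an established human embryonic stem cell line, and broken by sonication. It was mixed in solution with oligo or with none, pulled down on streptavidin beads and released with RNases, so the assay had no chromatin and no living cells. The 2 libraries of a group came from independent experiments, the input of the design was not analysed here, and the deposited lists hold no value per library. The spread between libraries and the depth are therefore unknown, and no test between the groups could be made. Intervals given below are 95% Wilson binomial intervals over regions or promoters. They cover counting error only, and neighbouring regions and overlapping promoters are not independent.

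An RNA can bind duplex DNA by lying in its major groove, where it forms Hoogsteen hydrogen bonds with the purine strand. Such a triplex needs a stretch of DNA in which one strand carries purines, A and G, and the other pyrimidines, C and T. MEG3 is known for binding Polycomb repressive complex 2 and for regulating genes of the TGF-beta pathway through GA-rich DNA.

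Promoter windows that overlapped a MEG3 TFR1 region held long purine runs more often than promoters in general, and examples come first, with runs inside and outside the recovered piece. The promoter windows are those of RefSeq on GRCh38.p14, 300 bases each, from 250 before to 50 after a gene's start. The bases before the start are printed for the 5 autosomal promoters whose captured region had the highest ratio, 5′ to 3′ on the gene's strand, with uninterrupted runs of at least 15 purines or at least 15 pyrimidines in capitals. A pyrimidine run is a purine run on the other strand.
FDXR, chr17:74868754-74869003, minus strand: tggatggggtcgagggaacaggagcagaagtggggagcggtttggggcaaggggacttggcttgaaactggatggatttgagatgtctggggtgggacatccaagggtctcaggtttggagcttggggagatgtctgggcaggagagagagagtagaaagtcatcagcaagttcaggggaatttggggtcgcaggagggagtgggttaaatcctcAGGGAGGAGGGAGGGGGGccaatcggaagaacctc
CACNB3, chr12:48815324-48815573, plus strand: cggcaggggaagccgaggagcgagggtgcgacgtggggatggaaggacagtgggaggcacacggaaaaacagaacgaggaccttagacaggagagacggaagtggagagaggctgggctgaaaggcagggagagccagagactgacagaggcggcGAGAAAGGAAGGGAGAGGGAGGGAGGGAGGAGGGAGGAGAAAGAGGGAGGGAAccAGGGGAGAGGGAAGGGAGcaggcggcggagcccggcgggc
LINC02076, chr17:18410909-18411158, plus strand: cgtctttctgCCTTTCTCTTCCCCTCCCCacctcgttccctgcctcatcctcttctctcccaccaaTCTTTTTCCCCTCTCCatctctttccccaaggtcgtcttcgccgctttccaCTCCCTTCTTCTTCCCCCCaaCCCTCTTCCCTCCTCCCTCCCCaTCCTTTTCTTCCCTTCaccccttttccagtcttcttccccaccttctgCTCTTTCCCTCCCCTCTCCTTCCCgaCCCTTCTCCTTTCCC
CASC20, chr20:6426482-6426731, plus strand: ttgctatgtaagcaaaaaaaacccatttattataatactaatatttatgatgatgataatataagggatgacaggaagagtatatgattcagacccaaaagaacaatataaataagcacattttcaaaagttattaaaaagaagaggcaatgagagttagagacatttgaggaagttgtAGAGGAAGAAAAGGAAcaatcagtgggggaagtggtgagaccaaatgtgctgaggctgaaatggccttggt
PTPN14, chr1:214551603-214551852, minus strand: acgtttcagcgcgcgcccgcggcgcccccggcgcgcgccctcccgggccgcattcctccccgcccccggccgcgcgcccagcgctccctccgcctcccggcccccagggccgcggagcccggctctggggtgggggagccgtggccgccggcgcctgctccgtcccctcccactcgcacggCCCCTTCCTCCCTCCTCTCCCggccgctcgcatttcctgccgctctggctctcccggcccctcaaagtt

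In FDXR, which encodes the ferredoxin reductase of mitochondrial electron transfer, the region was recovered at 19.4-fold over no oligo (log2 ratio 4.28) and covered all 250 printed bases, with a run of 18 purines. At CACNB3, an auxiliary subunit of voltage-gated calcium channels, the ratio was 17.0-fold and the whole run of 53 purines lay inside the region. The window of the noncoding gene LINC02076 stood at 16.1-fold and is a chain of pyrimidine runs, the longest of 24 bases. These 3 promoters have their longest run inside the captured region, while the remaining printed promoters do not. At the noncoding gene CASC20, 14.9-fold, the run of 16 purines lay outside the region, which covered 69 of the printed bases. At PTPN14, which encodes a protein tyrosine phosphatase, 14.5-fold, the region reached only the bases after the start and covered 0 of those printed.

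The same display is given for 3 of the 5 captured promoters with the longest runs, to show what an extended purine tract looks like in the recovered DNA.
LOC124901566, chr7:445978-446227, plus strand: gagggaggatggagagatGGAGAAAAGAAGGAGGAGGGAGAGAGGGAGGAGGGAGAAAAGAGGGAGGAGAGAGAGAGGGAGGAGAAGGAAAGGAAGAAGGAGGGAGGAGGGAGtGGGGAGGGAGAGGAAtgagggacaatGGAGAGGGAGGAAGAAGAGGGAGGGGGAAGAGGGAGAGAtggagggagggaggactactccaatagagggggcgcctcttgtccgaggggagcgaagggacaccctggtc
PCDH7, chr4:30720119-30720368, plus strand: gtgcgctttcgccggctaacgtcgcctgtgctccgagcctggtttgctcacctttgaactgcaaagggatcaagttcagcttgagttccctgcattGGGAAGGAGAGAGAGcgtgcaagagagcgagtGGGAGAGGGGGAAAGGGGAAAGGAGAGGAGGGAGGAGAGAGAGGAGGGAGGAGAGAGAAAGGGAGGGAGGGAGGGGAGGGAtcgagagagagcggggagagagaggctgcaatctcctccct
SHOX2, chr3:158106164-158106413, minus strand: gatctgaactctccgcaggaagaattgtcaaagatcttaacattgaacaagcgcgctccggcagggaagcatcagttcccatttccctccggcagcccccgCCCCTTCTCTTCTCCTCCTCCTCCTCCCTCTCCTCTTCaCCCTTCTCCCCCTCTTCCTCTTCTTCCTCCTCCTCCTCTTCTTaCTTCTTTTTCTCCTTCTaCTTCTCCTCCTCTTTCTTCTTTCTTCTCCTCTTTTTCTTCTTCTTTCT

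The noncoding gene LOC124901566 had a run of 95 purines and a ratio of 4.62-fold, PCDH7, a protocadherin gene, a run of 81 and 4.33-fold, and SHOX2, a homeobox gene of limb and cardiac pacemaker development, a run of 68 pyrimidines, 48 of them before the start, and 8.77-fold. All 3 runs lay whole inside the captured region. At LOC105371822 the run of 66 also lay inside (2.06-fold), whereas at FBXL19, which encodes an F-box protein that binds CpG islands, 0 bases of its run of 81 did (2.30-fold). Ratios at these long runs thus spanned 2.06-fold to 8.77-fold, below the 10 highest promoters.

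Over all promoters, 2188 of 33558 distinct autosomal windows overlapped a captured region by at least 1 bp, 6.52%, against 74 windows (0.221%) with a control region. A purine run of at least 15 bases on either strand was present in 37.2% of the captured windows (815; interval 35.2% to 39.3%), in 19.7% of all windows (6627) and in 21.6% of the control windows (16; 13.8% to 32.3%). Longer runs stood further apart: runs of at least 20 were in 14.9% of captured and 5.92% of all windows, and runs of at least 30 in 3.20% and 1.03%. Among captured windows, a run of at least 15 lay on the gene's own strand in 20.7% when counted as purines and in 19.6% when counted as pyrimidines, so neither orientation to transcription dominated. The share was 1.91 times that of all windows with 1 window kept per gene and 1.86 times for protein-coding genes, beside 1.89 for all windows.

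Read the other way, the share of promoters that were captured was higher in each class of longer runs. It was 2.45% of 5149 windows whose longest run was under 9 bases, 4.63% for runs of 9 to 11, 7.47% for 12 to 14, 10.6% for 15 to 19, 15.5% for 20 to 29 and 20.3% of the 345 windows with runs of 30 or more (interval 16.4% to 24.8%). Neighbouring classes had intervals that did not overlap up to 20 to 29 bases, and those of the last pair did. The control share lay between 0 and 0.302% in every class, and the 0 of 345 windows with the longest runs allows a share of up to 1.10% by its interval. The median log2 ratio of captured windows was 1.29 in the shortest class and 1.69 in the longest.

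**Figure D1:**
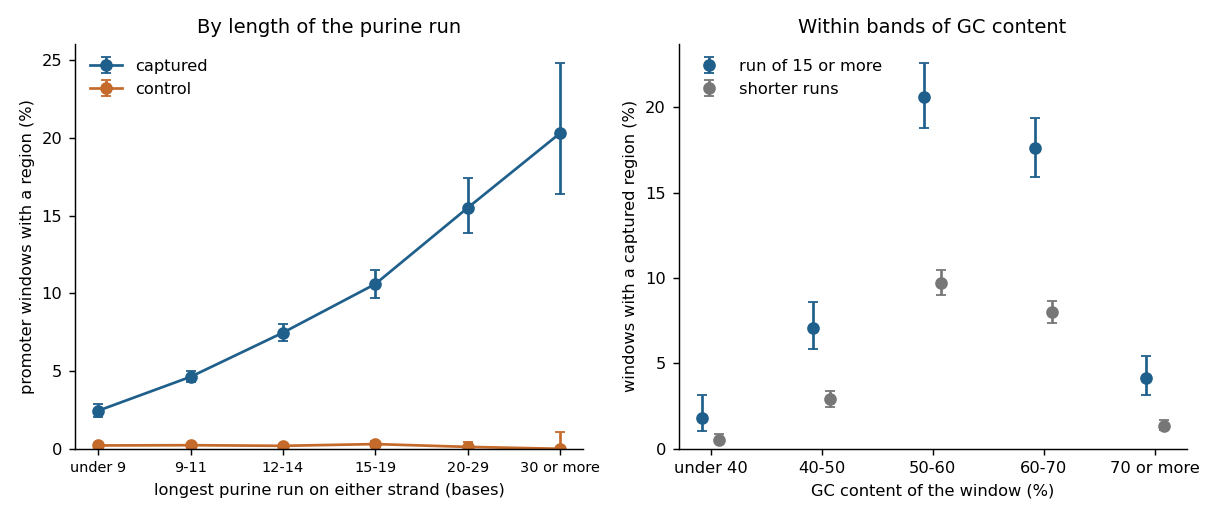
Left, the percentage of promoter windows that overlap a captured or a control region, by the longest purine run on either strand; right, the percentage captured among windows with and without a run of at least 15 bases, within bands of GC content. Points are shares and bars 95% Wilson intervals; the captured share goes from 2.45% to 20.3% on the left, and windows with a run lie above the others in all 5 bands on the right.

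GC content also separated captured from other promoters. Captured windows had a median GC content of 59.0% (quartiles 53.7% and 64.0%), close to the 58.7% of all windows but in a narrower range (47.0% and 68.0%), and control windows one of 49.5%. The captured share was 0.760% below 40% GC, 12.2% between 50% and 60%, 9.91% between 60% and 70% and 1.83% at 70% or above. Within each band, windows with a run of at least 15 were captured more often than the rest: 20.6% against 9.71% at 50% to 60% GC, 17.6% against 7.99% at 60% to 70%, and 4.16% against 1.35% at 70% or above. The intervals did not overlap in any of the 5 bands.

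Among short words, purine words led. Of 9997 words of 8 letters found on either strand in at least 20 captured windows, AGAGGGAG had the highest ratio of captured to all windows, in 13.4% against 4.76%, a ratio of 2.82. The dinucleotide repeat GAGAGAGA was the fourth, in 8.82% of captured windows (193; interval 7.70% to 10.1%) and 3.36% of all windows (1129). Pure purine words made up 256 of the 9997 (2.56%), 12 of the 20 highest and 22 of the 50 highest, and 0 of the 50 lowest. The threshold of 20 counts captured windows only, which favours raised ratios among rare words. Some of the 20 highest lay near it, such as GAGATCGC in 20 captured windows. The median ratio was 1.18 over all words and 1.69 over pure purine words. GGAGGAGG was in 18.8% against 10.9%, GAAGGAAG in 5.58% against 3.51%, and the shorter GAAGGA in 34.5% against 24.0%. Not every purine repeat followed: AAAAAAAA was in 2.97% of captured and 5.53% of all windows. CACACACA, a repeat that mixes purines and pyrimidines, was in 3.29% and 3.21%, and the GC-box word GGGGCGGG in 17.5% and 22.6%. These words overlap one another, and a match is a description of the sequence and no binding site. The list of words was read after the windows had been compared.

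Windows with GAGAGAGA were captured in 17.1% of cases (interval 15% to 19.4%) and those without it in 6.15% (5.90% to 6.42%). A run of at least 15 without the repeat went with 11.2%, and neither feature with 4.98%. The lists of the other oligos share the no-oligo libraries, and their own values stand beside these without a test: 6.02% with the repeat and 3.07% without it for MEG3 TFR2, and 15.9% and 14.6% for GATA6-AS TFR1. For GATA6-AS TFR1 the intervals, 13.8% to 18.1% and 14.2% to 14.9%, overlapped, and for both MEG3 oligos they did not. Length of the purine run, by contrast, went with the captured share for all 3 oligos. From the shortest to the longest class the share went from 1.40% to 6.38% for MEG3 TFR2 and from 10.1% to 24.1% for GATA6-AS TFR1. With a run of at least 15 but no GAGAGAGA, GATA6-AS TFR1 captured 20.1% of windows (interval 19.1% to 21.1%), and with neither feature 13.3% (12.9% to 13.7%).

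The strongest captured promoters carried the features most often. A run of at least 15 was in 32.9% of windows whose region had a log2 ratio under 1 (368 windows), 36.0% from 1 to 1.5, 38.5% from 1.5 to 2, 41.7% from 2 to 3, and in 17 of the 24 windows at 3 or more (70.8%; interval 50.8% to 85.1%). Below 3 the intervals of all run shares overlapped, with 28.3% to 37.8% in the lowest class and 36.0% to 47.6% from 2 to 3. GAGAGAGA was in 5.98% and 6.16% of the lowest classes, then in 9.67%, 18.8% and 20.8% (5 windows, interval 9.24% to 40.5%). Median GC content stayed between 58.7% and 60.7%.

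**Figure D2:**
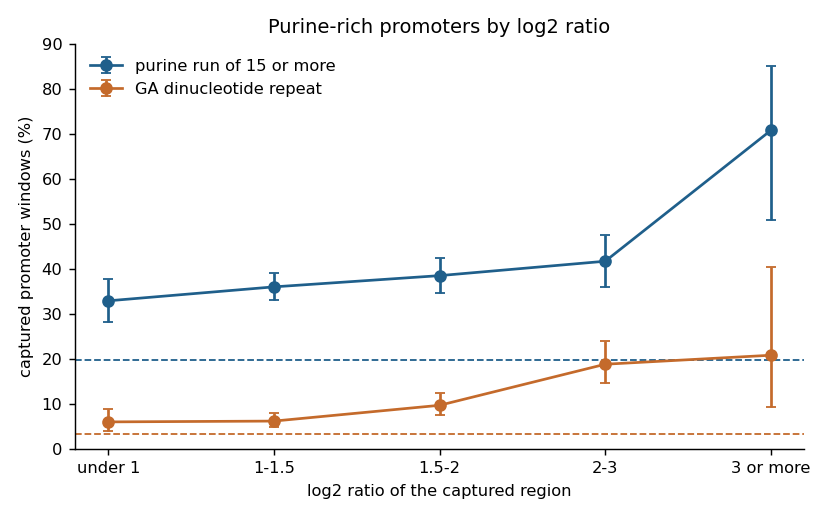
Percentage of captured promoter windows that hold a purine run of at least 15 bases or the repeat GAGAGAGA, by the log2 ratio of the captured region, with 95% Wilson intervals; dashed lines mark the share in all promoter windows, 19.7% and 3.36%. Both shares are highest in the classes from 2 upward, where the last class holds 24 windows.

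Runs lay inside the captured regions somewhat more than window bases did as a whole. Over the 815 captured windows with a run of at least 15, regions held 65.0% of window bases and 71.7% of the bases of the longest runs. In the 610 windows covered in part, the values were 53.2% and 61.5%. The longest run was whole inside a region in 564 windows (69.2%) and entirely outside in 217 (26.6%). The runs outside sat in the same window as the recovered piece but not in it.

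The remaining high promoters were at GDAP1L1 (14.4-fold), the lens crystallin gene CRYGN (13.9-fold), MIR9-2HG, the host gene of a neural microRNA (12.7-fold), LOC124903030 (12.5-fold) and LOC105369764 (10.9-fold). MIR9-2HG had a run of 37 bases inside its region, while GDAP1L1 had none above 10. Of the 10 highest promoters, FDXR, LINC02076 and LOC105369764 also had a MEG3 TFR2 region, at 5.80-fold, 8.25-fold and 4.33-fold, and FDXR, LINC02076, CRYGN and LOC124903030 a GATA6-AS TFR1 region, at 8.44-fold, 7.69-fold, 3.52-fold and 10.0-fold. The other 5 of the 10, CACNB3, CASC20, PTPN14, GDAP1L1 and MIR9-2HG, were listed with neither. MEG3 TFR2 regions overlapped 3.17% of all windows, whereas GATA6-AS TFR1 regions overlapped 14.6%. The counts among these 10 were not tested against those shares.

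Promoters were a small part of the recovered DNA. Of the 89682 autosomal captured regions, 1892 lay at a promoter window (2.11%; interval 2.02% to 2.21%), against 70 of 12649 control regions (0.553%; 0.438% to 0.699%). Counted by gene, 1319 of 15100 protein-coding genes with a window had a captured promoter (8.74%) and 38 a control region there (0.252%). Inside gene bodies, from start to end exons and introns alike, 11965 of 19122 protein-coding genes held a captured region (62.6%) and 4073 a control region (21.3%). Captured regions overlapped a protein-coding gene in 54.3% of cases (54.0% to 54.7%) and control regions in 49.0% (48.2% to 49.9%). For genes of long noncoding RNAs the shares were 15% and 14%. Protein-coding genes cover 1210 Mb and the long noncoding ones 439 Mb, beside an autosomal span of 2722 Mb. Overlap beyond the length covered was not tested.

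The recovered pieces were short. Captured regions were 150 to 4800 bp wide with a median of 350 bp (quartiles 300 and 500 bp), and control regions 150 to 7400 bp with a median of 300 bp. Narrow regions of at most 200 bp made up 11.3% of the captured and 30.4% of the control list. The authors' median log2 ratio of a captured region was 1.41, or 2.66-fold, with quartiles of 1.15 and 1.76, and that of a control region -1.53, or 2.88-fold in favour of no oligo. At least 4-fold was reached by 12905 captured regions (14.4%) and 2393 control regions (18.9%), and at least 8-fold by 1095 and 226. Narrow regions had the higher ratios: the captured median log2 ratio was 1.91 up to 200 bp, 1.35 from above 300 to 400 bp and 1.13 from above 600 to 1000 bp, with 1.40 in the 41 regions above 2000 bp. Of the regions at 8-fold or more, 16.9% had a fold that is a multiple of 0.5 within a relative tolerance of 3e-10, against 3.44% of all captured regions.

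**Figure D3:**
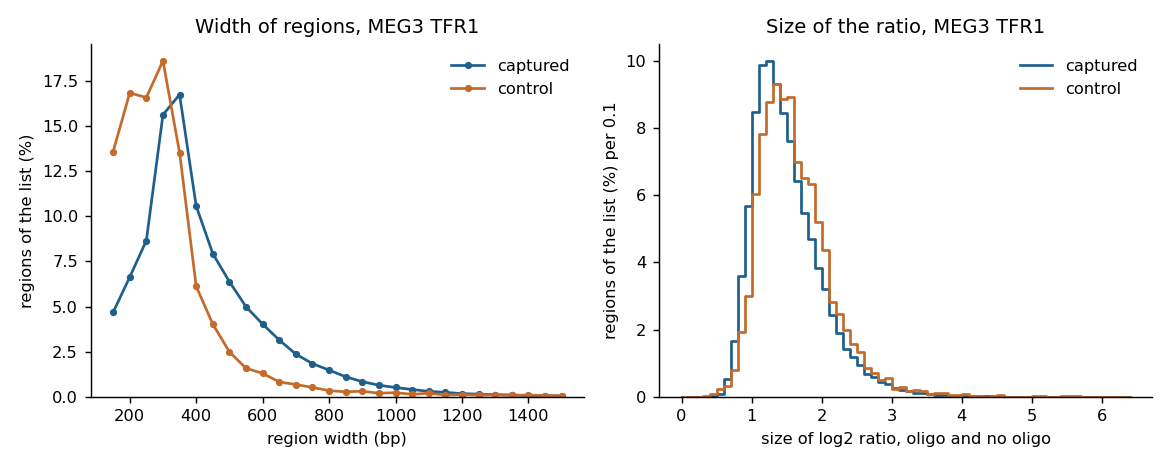
Percentage of the captured and of the control list by region width in steps of 50 bp (left; wider than 1500 bp not drawn) and by the size of the log2 ratio in steps of 0.1 (right). Captured regions peak at 350 bp and control regions at 300 bp, and the captured ratios lie lower in size, with medians of 1.41 and -1.53.

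Very wide regions were few. Of the 41 captured regions above 2000 bp, 14 were named inside a gene and 14 stood at 4-fold or more. The widest was 4800 bp near the zinc finger gene ZNF675 (chromosome 19, 23465351 to 23470150, 6.13-fold), and 2 others of the 10 widest lay on the same chromosome at 23879001 to 23882800 (7.06-fold) and 24179201 to 24182050 (5.54-fold). A region of 3650 bp on chromosome 20 (30501151 to 30504800) stood at 5.35-fold and one of 2850 bp on chromosome 22 (11615651 to 11618500) at 4.62-fold. TCHH, the hair follicle protein trichohyalin, held a region of 2850 bp at 5.67-fold (chromosome 1, 152109101 to 152111950). The other 4 were weaker: 1.58-fold in the pseudogene CROCCP2 (3850 bp), 1.74-fold and 1.59-fold on chromosome 21 (3650 and 3250 bp), and 2.34-fold near MMP25-AS1 (3100 bp). Of the 5 widest control regions, 2 lay on chromosome 10 at 41908701 to 41916100 and 41887051 to 41893500 (2.29-fold and 1.97-fold in favour of no oligo), outside named genes. The others were on chromosome 21 (10750151 to 10756100, 2.35-fold), chromosome 20 (31070401 to 31076300, 2.38-fold) and chromosome 4 beside DUX4 (190106601 to 190111850, 2.28-fold).

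By chromosome, captured regions ran with gene density. Chromosome 19 held 95.1 per Mb, followed by chromosome 22 with 73.4 and chromosome 17 with 65.5, while chromosome 4 held 14 and chromosome 13 held 17.6, against 32.9 over the autosomes. Across the 22 autosomes the Spearman correlation with protein-coding genes per Mb was 0.95 for captured and 0.69 for control regions, given as a description, since both share the same genes and libraries. Counted per protein-coding gene the range was narrower, from 3.46 captured regions on chromosome 4 to 6.23 on chromosome 18, with 3.68 on chromosome 19. Captured regions per control region were 7.09 over the autosomes, 15.9 on chromosome 1, where control regions were sparsest (2.88 per Mb), and 2.33 on chromosome 21, where they were densest (10.7 per Mb). Median log2 ratios per autosome differed little, from 1.35 to 1.45. Chromosome X had 57 captured and 0 control regions, narrow (median 250 bp) and high (median log2 2.38), and was left out of the shares.

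**Figure D4:**
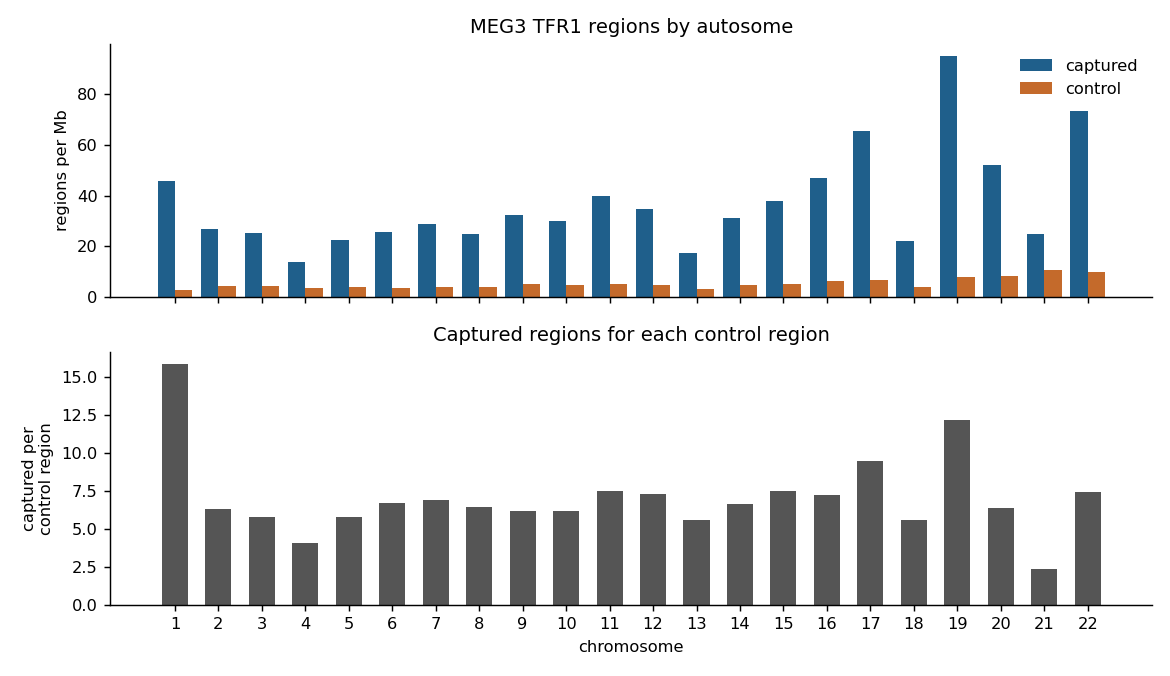
Captured and control regions per Mb of each autosome (top) and captured regions for each control region (bottom). Chromosomes 19, 22 and 17 have the tallest captured bars, and chromosome 1 has the highest and chromosome 21 the lowest number of captured regions per control region.

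Captured regions lay close together, at 32.9 per Mb over the autosomes. Their spacing was not compared with a random placement of as many regions, so clustering beyond that density was not tested. The median gap between neighbours was 9750 bp, against 97250 bp for the shorter control list. Another captured region lay within 1 kb of 20.5% of them, within 10 kb of 69.6% and within 100 kb of 98.0%; for control regions these were 8.78%, 21.8% and 70.3%, in a list 7.09 times shorter, whose gaps are not comparable with these. In windows of 1 Mb the median was 22 captured regions, and 51 of 2767 windows had none. The densest 10% of windows held 33.2% of captured regions and a median of 19 protein-coding genes, against 5 in all windows, and 16.6% of control regions. Joined at gaps of up to 10 kb, the captured regions formed 44230 groups, of which 27238 were single regions, 785 had at least 10 members and 134 at least 20.

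The densest 1 Mb window, chromosome 1 from 156000001 to 157000000, held 248 captured and 7 control regions beside 39 genes, and included 2 of the 10 largest groups. One of these, 50 regions over 166 kb, lay over LMNA, the lamin A/C gene (24), and SEMA4A, a semaphorin (9). On chromosome 20, 51 regions over 155 kb included 39 in the cadherin gene CDH22, and on chromosome 1 all 50 regions of a group lay in the ubiquitin ligase gene RNF220. NRXN2, a presynaptic adhesion gene, had 43 of 49 regions of its group, and LRP1, a large endocytic receptor gene, 29 of 48. A group of 48 on chromosome 2 held SPEG, a striated muscle kinase gene (18), and the acid-sensing channel gene ASIC4 (15), and one of 45 on chromosome 1 held COL16A1 (13) and ADGRB2 (12).

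HOX genes, which pattern the body axis, supplied 2 of the 10 largest groups. The HOXC group had 50 regions over 134 kb (chromosome 12, 53923301 to 54057800), 14 of them in HOXC4 and 9 in HOXC5, which overlap, with a high of 10.4-fold. The HOXB group had 44 over 103 kb (chromosome 17, 48544251 to 48647500), 15 of them in HOXB3, with a high of 6.13-fold. Control regions numbered 0 in both. Over the 10 groups there were 0 or 1 control regions each, and recovered DNA covered 14.2% to 22.5% of a group. The autosomes held 4.65 control regions per Mb, so 0 or 1 in a group of 103 to 166 kb is not far from that rate.

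**Figure D5:**
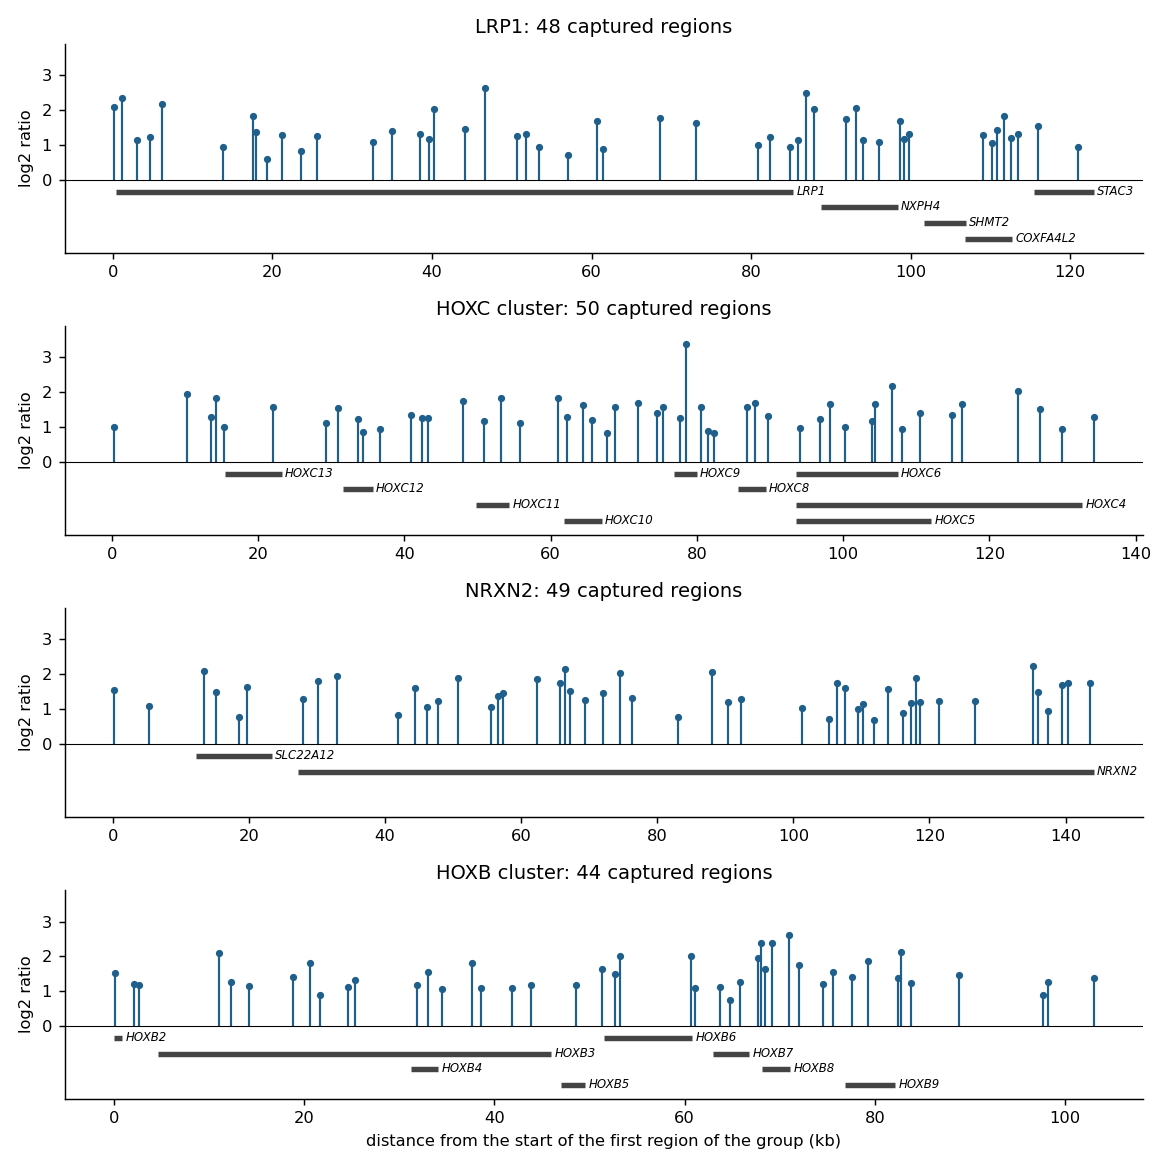
Captured regions of 4 of the 10 largest groups, each stem at the distance of a region's centre from the start of the group (kb) with its log2 ratio as height; dark bars are protein-coding genes, drawn only within the group. The regions run along the whole of each locus, in genes and between them, and none of the 4 groups has a control region. At 4.65 control regions per Mb over the autosomes, that says little for stretches this short.

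The names the authors gave to regions in the fourth column fall into 3 kinds. For 45016 captured regions (50.2%) a name stood alone, meaning inside or at a gene; 35971 (40.1%) had names marked plus or minus only; and 8752 (9.75%) had none. Compared with RefSeq, a gene marked plus lay at higher coordinates in 98.5% of cases and one marked minus at lower coordinates in 97.6%, so the marks give sides and not strands. The control list had 54.8%, 37.1% and 8.10% of the 3 kinds. Median log2 ratio hardly differed among the kinds of captured regions, at 1.40, 1.41 and 1.45. The names alone covered 12572 different genes, 4803 with a single captured region and 1031 with at least 10. LINC genes made up 281 of those names with 868 regions, and names ending as antisense transcripts 348 with 1103 regions.

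Of the 10 names with the most captured regions, 8 were genes of over 400 kb, several of them known from neurons. CAMTA1, a calmodulin-binding transcription activator, had 82 regions and CACNA1C, the pore of an L-type calcium channel, 80. DAB1, an adaptor of reelin signalling, had 76 over 1552 kb, and CDH23, a cadherin of hair cell tip links, 73 over 419 kb. Next came the channel gene ASIC2 (67), the neuronal splicing factor gene RBFOX3 (66), the kainate receptor gene GRIK4 (64) and the adhesion gene NTM (63). Control regions named in these 8 genes numbered 0 to 6 each. Another pair of names depended on the gene model: ELAVL1, the HuR RNA-binding protein, was given to 65 regions and EIF2B5, a translation initiation factor subunit, to 60, but the RefSeq gene bodies of 47.1 kb and 9.95 kb held 7 and 2. Per length the order changed. Protein-coding genes of at least 300 kb were counted over RefSeq bodies, and those named were chosen after the values were seen. CELF4, an RNA-binding protein of neurons, had 18.0 per 100 kb, CDH23 17.4, GSE1 17.0 and RBFOX3 14.1, whereas DAB1 had 4.90. For GSE1 the body held 86 regions, but 4 were named inside it. Of the 739 genes of this length, 717 held a captured region. BRINP3, ASCC3, CNTLN, COL19A1 and ANXA8 are the first in alphabetical order of those that held 0.

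Longer genes held more regions. Protein-coding genes under 10 kb held a captured region in 35.4% of cases and those of 300 kb or more in 97.0%, with medians of 0 and 9 regions. Per length, with the regions and lengths of a class pooled, the trend ran the other way. There were 11.7 captured regions per 100 kb under 10 kb and 2.32 at 300 kb or more. The median per gene did not follow throughout: it was 0 under 10 kb, 5.86 at 10 to 30 kb and 1.83 at 300 kb or more. Pooled control regions were at 0.610 per 100 kb under 10 kb, 0.691 at 10 to 30 kb and 0.341 at 300 kb or more. The densest genes with at least 10 regions in the RefSeq body were, again chosen after the values were seen, DMKN, an epidermal secreted protein (12 regions, 73.0 per 100 kb), BCAN, the brain proteoglycan brevican (11, 63.2), ERFL (13, 62.7), MDFI (10, 58.0) and the neuronal activity-dependent factor gene NPAS4 (10, 57.0). The authors' names placed 12 regions inside DMKN and 10 inside MDFI, but 0 inside BCAN, ERFL and NPAS4. ERFL lies within the RefSeq body of ARHGEF1, so its regions are counted there as well.

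Control regions were spread over many genes: 6933 were named inside 4965 different genes, 3570 of which had a single one and 8 at least 10. KANSL1, a subunit of a histone acetyltransferase complex, had 43 control and 15 captured regions. BAGE2 and TPTE on chromosome 21 had 33 and 24 control regions named inside and 10 and 8 captured ones, the name AL078471.5 had 23 and 9, and KMT2C, a histone H3 lysine methyltransferase, had 17 and 0, although its RefSeq gene body held 3 captured regions, the highest at 9.29-fold. In these 5 names, control regions outnumbered captured ones.

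Around MEG3 itself, captured regions were listed and control regions were not. Chromosome 14 held 31.2 captured and 4.69 control regions per Mb, so the absence of control regions from so short a stretch says little. The RefSeq gene body of MEG3 (chromosome 14, 100826108 to 100861026) held 5 captured regions, the highest at 2.58-fold. The authors, however, gave the name MEG3 alone to 0 captured regions. Within 50 kb lay 14 captured regions, with 0 control regions and the nearest of those 145 kb away. DLK1, a growth regulator of the same domain, had none in its body and 16 within 50 kb, the nearest 7.99 kb away at 9.29-fold. DIO3, which inactivates thyroid hormone, had 14 within 50 kb, the nearest 2.00 kb away at 3.37-fold. Of the 8 genes of the domain, which include noncoding ones such as MEG3, 5 held captured regions (62.5%). The share was 62.6% over all protein-coding genes, a set without noncoding ones. The domain's genes held 18 regions in all, 8 of them in BEGAIN. That is 7.40 per 100 kb of gene, beside 4.05 over protein-coding genes, not matched for length. Of the domain's 3 promoter windows, 0 overlapped a captured region. GATA6, which encodes an endoderm and heart factor on chromosome 18, had 1 captured region in its RefSeq body, at 6.75-fold. A control region lay 15.8 kb away, and the name GATA6 alone was given to 0 captured regions.

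Gene lists are read against 8.74% of protein-coding genes captured at a promoter, 62.6% in the gene body and 4.05 captured regions per 100 kb of gene. The lists were not matched for gene length, with which body share and density both changed. Over all protein-coding genes, pooled density was 11.7 per 100 kb under 10 kb and 8.50 at 10 to 30 kb. It was 5.06 at 30 to 100 kb, 3.54 at 100 to 300 kb and 2.32 at 300 kb or more. TGF-beta and BMP signalling genes had 3 of 34 promoters captured, those of the ligands TGFB2 (3.32-fold) and TGFB3 (2.90-fold) and of LTBP1, which binds latent TGF-beta (2.02-fold), and 29 of 40 gene bodies, at 3.96 per 100 kb. LTBP4 had 12 regions in 36.7 kb, the highest at 7.80-fold. The promoter share, 8.82%, and the density lay near the background. Polycomb repressive complex 2 genes had 0 of 10 promoters and 7 of 11 bodies, 10 regions of them in JARID2 beside 6 control regions. Pluripotency genes had 1 of 14 promoters, DPPA4 (2.58-fold), and 10 of 21 bodies, among them POU5F1, the master factor of the pluripotent state, with 1 region at 4.08-fold. Genes of p53 and its targets had 2 of 19 promoters, MDM4 and SFN, and 16 of 24 bodies. Endothelial genes had 1 of 16 promoters, ROBO4 (2.40-fold), and 25 of 28 bodies, with FLT4, a receptor of lymphatic growth factors, at 11 regions and a high of 10.3-fold.

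Ion channel genes held captured regions in most members named here. Of all protein-coding genes, 89.0% of those of 100 to 300 kb and 97.0% of longer ones held a captured region. All 17 autosomal voltage-gated calcium channel genes had one in the body, 357 regions in all and 7.38 per 100 kb, with 21 control regions; CACNA1B, a presynaptic channel pore, reached 22.7-fold and CACNA1A, another, had 41 regions. Potassium channel genes had 10 of 70 promoters (14.3%), among them KCNA5 at 10.2-fold with a run of 26 bases and KCNK3 at 5.04-fold with a run of 24, and 74 of 94 bodies. Long neuronal adhesion genes had 3 of 23 promoters, led by CNTNAP2 at 3.96-fold, and 30 of 30 bodies. Their density was 1.52 regions per 100 kb, below the background of 4.05 and beside 2.32 for all protein-coding genes of 300 kb or more. PCDH9 had a region at 33.3-fold.

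Other families ranged widely per length. HOX genes had 29.8 regions per 100 kb, in 27 of 39 bodies, and 3 of 20 promoters. Among these, HOXC4 and HOXC5 begin at the same position with the same promoter ratio, and their overlapping bodies share regions. WNT and frizzled genes had 10.2 regions per 100 kb in 22 of 29 bodies and 0 of 21 promoters. Collagen genes had 4.63 in 38 of 42 bodies and 4 of 30 promoters. WNT1, a neural patterning ligand, held a region at 10.1-fold. KLF zinc finger factor genes had 0 of 15 promoters and 9 of 17 bodies. Zinc finger genes of chromosome 19 had 8 of 216 promoters (3.70%), with ZNF71 at 9.78-fold and a run of 26 bases, and 124 of 246 bodies. Ribosomal protein genes, which are short, had 5 of 64 promoters (7.81%) and 15 of 81 bodies (18.5%). Olfactory receptor genes had 9 of 311 promoters (2.89%) and 44 of 389 bodies (11.3%), at 2.52 per 100 kb.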

How the data were processed

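Reads were aligned with BWA 0.7.15-r1140 to hg38 after FastQC, per the submitters' processing notes; region caller, settings and library scaling were not given in the sources used here. Each deposited list gives position, names and the authors' log2 ratio per region, oligo over no oligo. Base 2 was inferred: raising 2 to each value gave simple fractions (denominator up to 400, tolerance 3e-10) for 99.93% of captured and 98.70% of control regions, and base e for 0.0067% and 0.0079%. Depth is unknown. Lists were used as deposited; coordinates count from 1.

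RefSeq's GRCh38.p14 gene table supplied gene bodies, and 33725 promoter windows (33558 distinct) from a RefSeq table of the same build. Of the captured names, 63.4% matched a symbol or synonym. Overlap was at least 1 bp. Densities use the span of each autosome between its outermost regions, without empty stretches over 1 Mb (2722 Mb). Gene lists are the 16 reported. The other large group of the densest window is not reported here. Named items were the 10 names, widest regions, promoters and groups ranking highest, up to 4 members per list, 5 control names and wide control regions, and 4 fixed genes; the text gives some of these. Members and lists were chosen with earlier results of these data known. The overlap counts were tested on simulated regions, of which 100% of 1500 were found. Python 3.11.15, numpy 2.4.6, pandas 2.3.3 and scipy 1.17.1 were used.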

Additional observations from a re-analysis of the deposited data

How the results depend on the processing

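No paired analysis was possible because the lists hold 0 values per library, and no library could be left out for the same reason. Restricting each list to its top 50% by ratio left 44923 captured regions with a median width of 300 bp and a median log2 ratio of 1.76, and 48.2% had another within 10 kb. Requiring log2 1.5 or more in either direction left 38025, with medians of 300 bp and 1.83, 5.69 captured regions per control region, 12.1 on chromosome 1, 566 protein-coding genes captured at promoters, and 0.314% of control regions at promoters; the purine run ratio of captured over all promoters was 2.04. That ratio was 1.47 for runs of at least 12 and 2.51 for runs of at least 20. Overlap of at least 0.5 of the shorter interval gave 1.30% of captured and 0.285% of control regions at promoters and 826 genes. Neighbours within 5 kb, within 50 kb, or within 10 kb after joining regions up to 200 bp apart were found for 53.2%, 94.3% and 68.2% of captured regions. Over the gene lists, 51 members were captured at promoters and 492 in gene bodies. The purine run ratio was above 1 in each alternative run for it, and captured regions lay at promoters more often than control regions under both alternatives run for that share. The window per gene and protein-coding alternatives were chosen after seeing the data. Shares in small classes, such as 24 promoters at log2 3 or more and 74 control promoters, are limited by their number.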
